A study of Mus musculus with 3 samples.

Results

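The small leucine-rich proteoglycans are secreted proteins of the extracellular matrix that bind collagen fibrils. RNA of 9 of their genes, Dcn, Bgn, Aspn, Lum, Fmod, Prelp, Kera, Omd and Ogn, was measured in normal mouse muscle. The genes were taken by symbol. They were represented on the array by 19 of 22690 probe sets, and the array gave a level for 12394 genes in all. A probe set is a group of short probes for the same transcript. Dcn, Lum, Kera and Omd had a single probe set each, and the other 5 genes had several. No probe set that names several genes carried a member.

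The only group consisted of 3 samples of normal muscle, named muscle 1, muscle 2 and muscle 3, from littermate control mice aged 3 to 6 weeks, with 1 array per muscle. The labels give neither the strain nor the genotype of the littermates, and do not say which muscle was sampled or whether the samples came from separate animals. The treatment text common to the series describes injection of 4-hydroxytamoxifen into the hindlimb of mice that then formed tumours, and does not say whether the controls were injected. In the study these samples served as the normal reference for tumours derived from Pax7-expressing satellite cells. Tumour arrays were not analysed here, so no contrast between conditions was made.

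The protein core of each member is a chain of leucine-rich repeats that folds into a curved solenoid. The core binds collagen and limits the sideways fusion of fibrils, and the attached sugar chains, chondroitin or dermatan sulfate on some members and keratan sulfate on others, hold water and space the fibrils. Several members also bind growth factors of the TGF-beta family. In skeletal muscle these proteins are made mainly by fibroblasts and related stromal cells of the connective tissue sheaths. By the sequence of the core, Dcn, Bgn and Aspn are placed in class I, Lum, Fmod, Prelp, Kera and Omd in class II, and Ogn in class III.

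All levels are log2 RMA values, on which a difference of 1 is 2-fold. A gene was called detected in a muscle where its value lay above the background level, set at the 95th percentile of 51 probe sets for transcripts restricted to organs such as retina, testis, liver and pancreas. That level was 6.15, 6.11 and 6.15 in muscles 1, 2 and 3. For genes with several probe sets, the highest by mean stood for the gene. Levels of different probe sets depend on how strongly their probes bind, so levels of different genes were not compared with each other. The choice of the highest probe set, the background level and the summed linear levels of gene lists use them as measured. Such a sum is carried mainly by the genes with the highest values. The 10 markers of muscle fibres, among them Acta1, Ckm and Myh4, were detected in every muscle. Each array had the same median, 6.12, and precision is limited by there being 3 arrays.

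Of the 9 proteoglycan genes, 8 were detected in all 3 muscles, against 55.7% of all 12394 genes. Omd was detected in muscle 2 alone. The levels of Dcn, Bgn, Fmod and Kera differed between muscles by at most 1.08-fold at the highest probe set. Lum, Ogn, Prelp and Aspn spanned 1.17-fold to 1.52-fold. At the highest probe set, 7 of the 8 genes detected throughout had their lowest value in muscle 3, against 47.8% of the 6903 genes detected in all 3 muscles. Of the 9 other member probe sets detected throughout, only 1, of Fmod, was lowest there. Dcn, Lum and Kera had no other probe set, and the other one of Prelp lay below background. None of the 8 varied between muscles beyond the spread of genes of like level after adjustment. These are whole-tissue samples, so fewer cells of a type and less RNA per cell cannot be told apart.

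**Figure D1:**
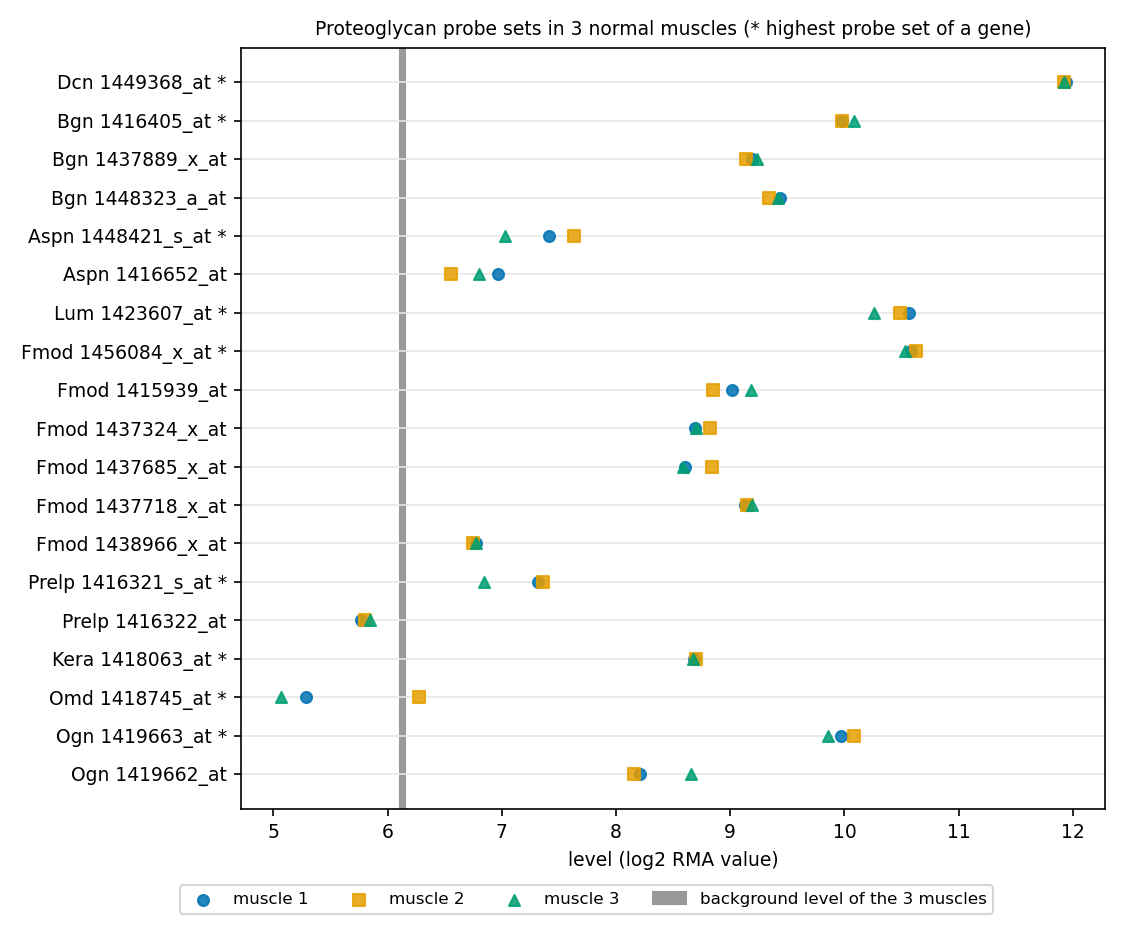
Level of each of the 19 probe sets (log2 RMA value, horizontal axis) in muscle 1, muscle 2 and muscle 3 (points), with the background levels of the muscles as a grey band and the highest probe set of each gene marked by an asterisk. Of the 19 probe sets, 17 lay above background in all 3 muscles, the lower Prelp probe set lay below it in every muscle, and Omd lay above it in muscle 2 only.

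Decorin, encoded by Dcn, carries a single chondroitin or dermatan sulfate chain, binds type I collagen and can bind TGF-beta and myostatin. Its level was 11.94, 11.92 and 11.92 in muscles 1, 2 and 3. The muscles lay within 1.01-fold of each other. The SD of Dcn over the 3 muscles was 0.0087, which was 0.241 times the SD expected from genes of like level. Its value lay 5.77 to 5.81 above the background level.

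Biglycan, encoded by Bgn, is the closest relative of decorin, and its soluble form can signal through Toll-like receptors. The highest Bgn probe set (1416405_at) was at 9.98, 9.98 and 10.08 in muscles 1, 2 and 3. The second (1448323_a_at) was at 9.44, 9.34 and 9.42 in the same order of muscles, and the third (1437889_x_at) at 9.19, 9.13 and 9.23. The 3 probe sets spanned 1.07-fold to 1.08-fold, and among the 8 members detected throughout, Bgn was the only one whose highest probe set was not lowest in muscle 3. The highest probe set placed muscle 1 lowest, while the other 2 placed muscle 2 lowest.

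Asporin, encoded by Aspn, has a run of aspartate residues near its amino end and binds collagen and TGF-beta. Its highest probe set (1448421_s_at) was at 7.42, 7.63 and 7.03 in muscles 1, 2 and 3, a span of 1.52-fold. The other (1416652_at) was at 6.96, 6.56 and 6.80 in muscles 1, 2 and 3, a span of 1.32-fold. Muscle 2 was thus the highest by the first of these Aspn probe sets and the lowest by the other. For the highest probe set the SD was 0.305, 2.65 times that expected at its level, and in limma's variance test p was 0.0196 before and 0.866 after adjustment. For the other probe set, with every probe set as a row of the limma fit, p was 0.183 before adjustment.

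Class II holds 5 of the 9 members. Lumican, encoded by Lum, carries keratan sulfate chains and is needed for the regular fibrils of the cornea as well as for skin strength. It was at 10.57, 10.49 and 10.26 in muscles 1, 2 and 3, the lowest of the 3. Muscle 3 departed by -0.265 from the mean of the other 2 muscles. The SD of Lum was 0.158, which was 3.13 times the SD expected at its level, the widest of the 9 on this scale. By limma's variance test p was 0.00828 before adjustment and 0.756 after adjustment over 7438 genes. With a single probe set, this difference could not be checked against other probes for Lum.

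Fibromodulin, encoded by Fmod, shares a collagen binding site with lumican and is abundant in tendon. It had 6 probe sets, all above background in every muscle. The highest (1456084_x_at) was at 10.58, 10.63 and 10.53 in muscles 1, 2 and 3, a span of 1.07-fold. Of the others, 1415939_at had the widest span, 1.26-fold, at 9.02, 8.85 and 9.18 in muscles 1, 2 and 3. The next, 1437685_x_at, was at 8.61, 8.84 and 8.58 in muscles 1, 2 and 3. These 2 probe sets ordered the muscles in opposite ways. The remaining 3, 1437324_x_at, 1437718_x_at and 1438966_x_at, had means of 8.74, 9.16 and 6.76 and ranges of 0.136, 0.0638 and 0.0207. Over the 6 Fmod probe sets, muscle 3 was lowest in 2 and muscle 2 was highest in 3.

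Prelp encodes a member with a basic, arginine- and proline-rich amino end that binds heparin and heparan sulfate, and can link basement membranes to collagen. Its highest probe set (1416321_s_at) was at 7.32, 7.36 and 6.84 in muscles 1, 2 and 3. Muscle 3 departed by -0.498 from the mean of the other 2, and muscles 1 and 2 lay close together. The SD of Prelp was 0.288, 2.39 times that expected, and in limma's variance test p was 0.0317 before and 0.929 after adjustment. The other probe set (1416322_at) was at 5.77, 5.81 and 5.85 in muscles 1, 2 and 3, below background throughout. Detection of Prelp therefore rested on a single probe set, whose name marks it as matching several transcripts. With the background level set at the 99th percentile, the muscle 3 value of that probe set lay below background.

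Keratocan, encoded by Kera, is best known from the stroma of the cornea, where it carries keratan sulfate. In muscle it was at 8.68, 8.70 and 8.67 in muscles 1, 2 and 3, which lay 2.52 to 2.59 above background. The muscles differed by at most 1.02-fold. The SD of Kera, 0.016, was 0.202 times that expected at its level, the narrowest of the 9 on this scale. Of the markers listed for corneal epithelium and keratocytes, Aldh3a1 and Krt12 were below background in every muscle, with means of 3.99 and 3.65. The broadly expressed Ptgds and Tkt, also on that list, were above it, with means of 7.17 and 10.94.

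Osteomodulin, encoded by Omd, is a keratan sulfate member with an acidic carboxyl end, known from bone and tooth matrix. It was at 5.28, 6.27 and 5.06 in muscles 1, 2 and 3. Only muscle 2 lay above background, by 0.163, so the difference has no more than a lower limit: muscle 2 was at least 1.09-fold above the background level that bounds the other muscles. Since 2 of its 3 values lay below background, the order of muscles 1 and 3 was not measured and no test is given for Omd. Of the 8 members detected in all 3 muscles none had a range of 1, which is 2-fold, against 0.116% of the 6903 genes detected in all 3. At a background level set at the 99th percentile, Omd was below background in all 3 muscles.

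The genes whose 3 values moved most like those of Omd were sought by the Euclidean distance between values centred on each gene's mean, over the 3 muscles and 7437 other genes, with values below background left as measured. The nearest were Pde1b at a distance of 0.269, Lep at 0.282 and Sncg at 0.355. Pde1b was at 5.79, 6.50 and 5.65 in muscles 1, 2 and 3. Lep, the leptin gene of adipocytes, was at 5.94, 6.60 and 5.36 in muscles 1, 2 and 3. Sncg was at 7.28, 7.87 and 7.12 in muscles 1, 2 and 3. Pde1b and Lep were above background in muscle 2 only, as was Omd, and Sncg in all 3 muscles. The search covered only genes detected in at least 1 muscle, so Pde1b and Lep entered it through muscle 2 alone. That they share detection in muscle 2 with Omd follows from the search and is not a separate result. With 3 values per gene, 2 of them below background for Omd, this likeness is a description.

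Of the cartilage and bone markers, 1 of 10 was detected in every muscle, Col2a1, at 6.48 ± 0.14 (SD, n = 3). The other 9 lay below background in every muscle, among them Acan at a mean of 5.04 and Matn1 at 2.65. Those 9 also include the bone genes Ibsp, Sp7, Alpl and Dmp1, with means from 4.80 to 5.42. The summed linear level of that list was 98.8%, 101% and 100.4% of its own mean in muscles 1, 2 and 3. With 9 of the 10 genes below background, that sum does not measure the level of the list. Of the adipocyte markers 4 of 5 were detected in every muscle, and the summed level of the list was 94.7%, 102% and 103% of its mean. Most of that sum was a single gene, Lpl, at 12.521, 12.670 and 12.715 in muscles 1, 2 and 3. Adipoq, an adipocyte hormone, was at 10.59, 10.55 and 10.40 in muscles 1, 2 and 3, an order that was not that of Omd. Cidec, a lipid droplet gene, was at 7.13, 7.34 and 7.44. The part of these lists in the Omd values was not tested.

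Class III is represented by Ogn, which encodes mimecan, also called osteoglycin, a keratan sulfate member that takes part in collagen fibril assembly. Its highest probe set (1419663_at) was at 9.97, 10.08 and 9.86 in muscles 1, 2 and 3. The other (1419662_at) was at 8.21, 8.15 and 8.66 in muscles 1, 2 and 3. The order of the muscles was reversed between them: muscle 3 departed from the mean of the other 2 by -0.165 in the highest probe set and by 0.476 in the other. With every probe set as a row of the limma fit, p for the second Ogn probe set was 0.0121 before and 0.743 after adjustment, and for the highest it was 0.0849 before adjustment.

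**Figure D2:**
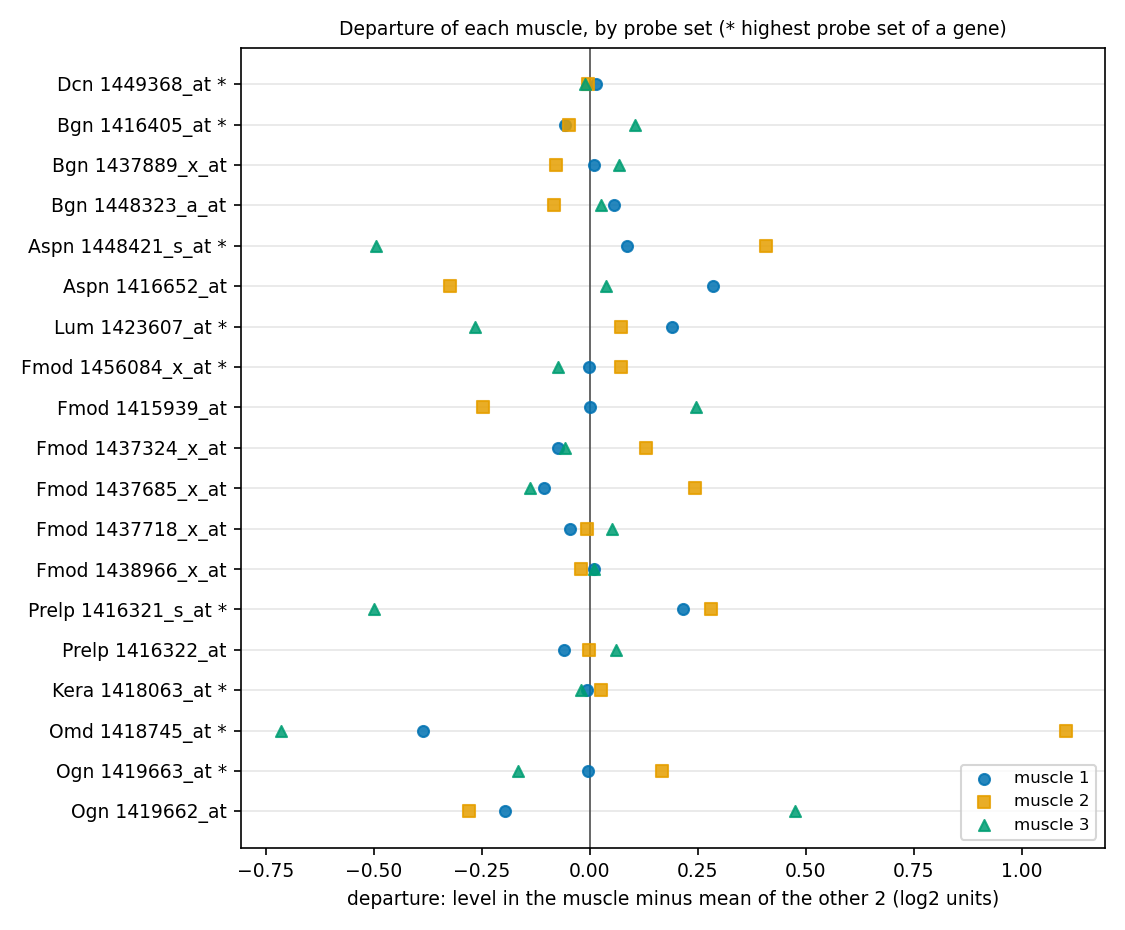
Departure of each muscle (its level minus the mean of the other 2 muscles, in log2 units, horizontal axis) for each of the 19 probe sets, with the highest probe set of each gene marked by an asterisk. Of the 17 probe sets above background in all 3 muscles, muscle 3 (triangles) is leftmost in 7 of the 8 that are the highest of their gene and in 1 of the 9 others; the values of Omd and of the lower Prelp probe set include levels below background.

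Across the 8 members detected in all 3 muscles, the median SD was 0.0856, against 0.0758 for the 6903 genes so detected. The median departures of these members were 0.0068, 0.0737 and -0.119 in muscles 1, 2 and 3. For the 6903 genes they were 0.0267, 0.0106 and -0.0359. With Omd included, the median departure of the 9 members in muscle 3 was -0.165. Muscle 2 was the highest for 5 of the 8 members, against 35.2% of the 6903 genes. The same 5, Fmod, Ogn, Prelp, Kera and Aspn, were both highest in muscle 2 and lowest in muscle 3, against 23.0% of those genes. Departures in muscle 3 of -0.1 or lower belonged to 4 of the 8, Lum, Ogn, Prelp and Aspn, while those of Dcn and Kera were -0.0108 and -0.0211, smaller in size than the SD expected at their levels, 0.0359 and 0.0792.

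The order depended on which probe sets were read. Over the 17 member probe sets above background in all 3 muscles, 8 were lowest in muscle 3, against 47.8% of the 9894 single-gene probe sets so detected. Of the 9 of them that were not the highest of their gene, only 1 was lowest in muscle 3. These 9 belong to Fmod, Bgn, Ogn and Aspn alone, and most are of Fmod and Bgn, which had 6 and 3 probe sets. They are therefore not independent, and Bgn was not lowest in muscle 3 at its highest probe set either. When the second-highest probe set was taken for the 5 genes that have more than 1, muscle 3 was lowest in 3 of the 7 members still above background in all 3 muscles. For Aspn and Ogn the low value of muscle 3 was seen in 1 of 2 probe sets. Lum had no other probe set, and Prelp had none above background.

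None of the 8 members detected in all 3 muscles was called by limma's variance test after Benjamini-Hochberg adjustment, against 0.0869% of the 6903 genes so detected. At an unadjusted p under 0.05 there were 3 of the 8, Lum, Aspn and Prelp, against 5.0% of those genes. All 3 were also lowest in muscle 3, against 2.81% of the 6903 genes that met both conditions. The count of 3 was 0 without muscle 3, 2 without muscle 2 and 4 without muscle 1, and it was 1, Lum, with probe sets averaged. Without probe sets matching several transcripts it was 2, Lum and Fmod, and without the trend on level it was 2, Prelp and Aspn. The highest probe sets of Aspn and Prelp are both marked by name as matching several transcripts. Among Lum, Aspn and Prelp the lowest adjusted p by limma's variance test was that of Lum, 0.756. Across the alternative settings the adjusted p of Lum by that test ran from 0.585 to 0.99. With every probe set as a row, 0 of the 19 probe sets were called.

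**Figure D3:**
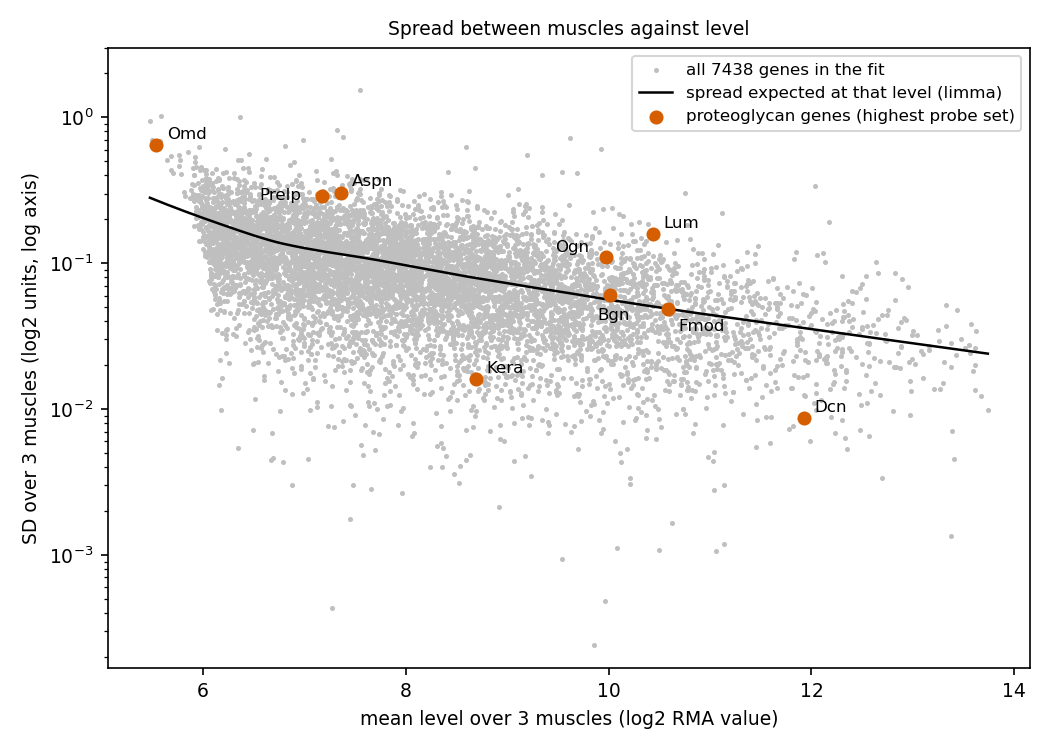
SD over the 3 muscles (log2 units, logarithmic axis) against mean level (log2 RMA value) for the 7438 genes in the fit (grey), the SD that limma expects at each level (line) and the 9 proteoglycan genes (orange). Lum, Aspn, Prelp and Ogn lie above the line, as does Omd with 2 of its 3 values below background, Bgn and Fmod on it, and Dcn and Kera below it at 0.241 and 0.202 times the expected SD.

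Control signals also varied between the arrays. For 18S ribosomal RNA the 5' control probe set gave 10.96, 11.23 and 11.69 in muscles 1, 2 and 3. The 3' minus 5' difference of Gapdh was 0.331, 0.427 and 0.373, and that of Actb 0.756, 0.765 and 0.607, in the same order. Muscle 3 was the highest for 18S and the lowest for Actb, and lay between the others for Gapdh. The part of these signals in the low proteoglycan values of muscle 3 was not tested.

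Marker lists of stromal and other cell types were measured in the same samples. All 10 measured fibroblast markers were detected in every muscle, with Pdgfra at 9.31 ± 0.07, Thy1 at 8.78 ± 0.01 and Col1a1 at 11.36 ± 0.07 (SD, n = 3). Their ranges were between 0.0293 and 0.199, and their summed level was 99.2%, 102% and 98.8% of its mean in muscles 1, 2 and 3. In muscle 3, 8 of the 10 fibroblast markers and 7 of the 8 proteoglycans detected throughout lay below the mean of the other 2 muscles. Most genes did so, though their exact share was not computed, for these counts or for later ones of this kind. The median departure in muscle 3 was -0.0359 over the 6903 genes detected in all 3 muscles. The median departure there was -0.119 for those 8 proteoglycans and -0.0054 for the fibroblast markers, and over all 9 proteoglycans it was -0.0211 with probe sets averaged. Of 7 tendon markers 6 were detected in every muscle, with Tnmd at 7.21 ± 0.04 and Comp at 6.74 ± 0.08, and Scx was below background at 5.22 ± 0.10 (SD, n = 3). The summed tendon level was 100.1%, 98.5% and 101% of its mean. Endothelial and mural markers were all detected, 8 of 8, with a summed level of 99.97%, 101% and 98.96% of its mean, and Pecam1 at 6.49 ± 0.10 (SD, n = 3). In muscle 3, 6 of these 8 markers lay below the mean of the other muscles, with a median departure of -0.096. Kdr, a receptor of endothelial cells, was at 7.60, 7.35 and 6.99 in muscles 1, 2 and 3, and its variance p by limma was 0.0192 before and 0.866 after adjustment. Cdh5 was at 8.56, 8.62 and 8.30 and Tek at 7.13, 7.28 and 7.02, both lowest in muscle 3. Cspg4, a mural cell marker, was highest there, at 7.35, 7.46 and 7.86. Of 6 macrophage markers 4 were detected in every muscle, with Adgre1 at 8.44 ± 0.15 and Csf1r at 9.80 ± 0.09 (SD, n = 3), and the summed level was 102%, 105% and 93.4% of its mean, lowest in muscle 3. All 4 detected macrophage markers lay below the mean of the other muscles in muscle 3, and Cd68 was below background. The part of the endothelial and macrophage markers in the proteoglycan values of muscle 3 was not tested.

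The collagens to which the family binds had ranges between 0.0433 and 0.41. Of 10 genes for collagens of fibrils and their surfaces, 9 lay above background throughout and Col12a1 nowhere. Col1a1 was at 11.32, 11.44 and 11.32 in muscles 1, 2 and 3. Col1a2 was at 12.85, 12.93 and 12.88, and Col3a1 at 13.11, 13.12 and 13.07, in the same order. In muscle 3 the collagens departed by a median of 0.0152, and 4 of the 10 genes lay below the mean of the other 2 muscles there. No collagen of the list was called by limma's variance test, and none had an unadjusted p under 0.05.

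Enzymes that build the sugar chains were detected in part. For chondroitin and dermatan sulfate, 8 of 15 measured genes were above background in every muscle and 5 in none. The genes of the linker region that joins the chain to the protein core included Xylt2 and B4galt7, below background at means of 4.73 and 5.69, and B3galt6, at 6.02 and above background in muscle 3 only. The other linker genes, B3gat3 and Fam20b, were detected in every muscle. For keratan sulfate 3 of 6 were detected, with B3gnt2 at 7.23 ± 0.12 and B4galt1 at 9.02 ± 0.05, and B4galt4 below background at 4.66 ± 0.13 (SD, n = 3). No gene of either list had a range of 1 or was called by limma's variance test, and none had an unadjusted p under 0.05.

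Ligands, receptors and proteases of the family were mixed in the same way. Of 17 growth factors, receptors and matrix partners, 12 lay above background throughout and 5 nowhere. The TGF-beta genes were among those detected, with Tgfb1 at 6.34 ± 0.23, Tgfb2 at 7.93 ± 0.12 and Tgfb3 at 7.49 ± 0.05 (SD, n = 3). The Toll-like receptor genes Tlr2 and Tlr4 were below background, with means of 5.09 and 5.58. By limma's variance test 2 genes of this list, Kdr and Eln, named after their values were seen, had an unadjusted p under 0.05, against 5.0% of the genes detected in all 3 muscles, and none passed adjustment. Of 10 proteases 5 were detected in every muscle. Bmp1, which trims the propeptide of biglycan, was at 7.94 ± 0.06, while its relatives Tll1 and Tll2 were below background at 3.31 ± 0.17 and 3.96 ± 0.07 (SD, n = 3). Of the other leucine-rich matrix genes listed, 3 of 9 had a probe set, and Epyc, Optc and Chad were below background in every muscle, with means of 3.35, 3.69 and 6.06.

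By the order of protein-coding genes in the RefSeq annotation of GRCm38.p6, 8 of the 9 members lie next to another member. Dcn, Lum and Kera follow each other on chromosome 10, with Epyc after Kera. Aspn, Omd and Ogn follow each other on chromosome 13, with Ecm2 before Aspn. Prelp and Fmod are neighbours on chromosome 1, with Optc before Prelp, and Bgn lies on chromosome X away from the others. In the chromosome 10 group the range between muscles was 0.0168 for Dcn, 0.0315 for Kera and 0.304 for Lum, and the next gene, Epyc, was below background. Dcn and Lum both had muscle 1 highest and muscle 3 lowest, but the SD of Dcn was 0.241 times that expected at its level. After quantile normalization the lowest muscle for Dcn was muscle 2. In the chromosome 13 group all 3 members were highest in muscle 2 at the highest probe set, with departures there of 0.408 for Aspn and 0.168 for Ogn, and the second probe sets of Aspn and Ogn were lowest there. On chromosome 1, Prelp and Fmod were likewise both highest in muscle 2 and lowest in muscle 3 at the highest probe set. Their departures in muscle 2 were 0.281 and 0.0737, and the SD of Fmod was 1.00 times that expected at its level. Of the 6 Fmod probe sets, 3 were highest in muscle 2 and 2 were lowest in muscle 3, and the other Prelp probe set lay below background.

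The promoter sequences of these 5 genes of chromosomes 13 and 1 are shown because each was highest in muscle 2 together with its neighbour at the highest probe set. This choice was made from the values themselves, and how often neighbouring genes share their highest muscle was not computed. Of the 6903 genes detected in all 3 muscles, 35.2% were highest in muscle 2. Without probe sets matching several transcripts, Aspn and Fmod were lowest in muscle 2. Shared control of these genes was not tested. RefSeq promoters (GRCm38.p6) matched 7 of the 9 members, all but Dcn and Lum. Each sequence below is the 250 bases before the start of the gene, 5′ to 3′ on the strand of the gene, in lower case. Capitals mark every match to TATAAA on either strand. GGGCGG and TGANTCA were also searched on both strands and had no match in these 5 sequences. For Aspn the window is chr13:49544193-49544442, for Omd chr13:49582212-49582461 and for Ogn chr13:49607765-49608014, all on the plus strand. For Prelp it is chr1:133921402-133921651 on the minus strand and for Fmod chr1:134037004-134037253 on the plus strand.
Aspn: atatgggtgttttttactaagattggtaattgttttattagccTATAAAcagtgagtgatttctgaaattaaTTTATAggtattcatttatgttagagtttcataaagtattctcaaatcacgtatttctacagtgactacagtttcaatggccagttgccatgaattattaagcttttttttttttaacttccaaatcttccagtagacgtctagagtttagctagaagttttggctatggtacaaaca
Omd: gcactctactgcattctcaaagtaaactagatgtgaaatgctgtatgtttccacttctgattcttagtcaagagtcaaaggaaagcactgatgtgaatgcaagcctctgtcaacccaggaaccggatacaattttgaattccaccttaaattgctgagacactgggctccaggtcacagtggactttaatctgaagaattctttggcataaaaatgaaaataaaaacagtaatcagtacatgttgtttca
Ogn: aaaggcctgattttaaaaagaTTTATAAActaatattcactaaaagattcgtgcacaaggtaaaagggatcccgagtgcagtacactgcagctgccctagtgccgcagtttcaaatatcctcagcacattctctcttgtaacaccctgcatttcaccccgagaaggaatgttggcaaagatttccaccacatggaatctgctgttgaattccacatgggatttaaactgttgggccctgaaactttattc
Prelp: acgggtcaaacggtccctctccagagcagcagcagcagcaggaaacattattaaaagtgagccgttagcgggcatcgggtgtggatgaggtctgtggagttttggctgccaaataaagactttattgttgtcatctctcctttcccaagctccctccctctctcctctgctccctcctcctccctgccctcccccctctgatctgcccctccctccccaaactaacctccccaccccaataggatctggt
Fmod: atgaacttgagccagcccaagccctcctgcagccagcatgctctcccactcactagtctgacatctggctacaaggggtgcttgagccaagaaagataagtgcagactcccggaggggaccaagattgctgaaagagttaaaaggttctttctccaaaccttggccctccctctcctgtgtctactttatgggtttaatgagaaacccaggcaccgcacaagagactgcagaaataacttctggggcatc
TATAAA was found for Aspn and Ogn and not for Omd, Prelp or Fmod. Over all 32851 promoter windows of this length 12.4% held TATAAA, 32.7% GGGCGG and 6.75% TGANTCA. Of the 7 members with a window, 2 held TATAAA and 1, Bgn, held GGGCGG. GC made up 30.0% of the Aspn window, 38.4% of that of Omd, 42.0% of that of Ogn, 55.6% of that of Prelp and 51.2% of that of Fmod. A match describes the letters only.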

How the data were processed

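RNA of normal muscle was isolated with Trizol, and labelling with biotin started from 500 ng of it, per the labels' protocols. The deposited values are on the log2 scale. RMA is named in the submitters' processing notes: it corrects background, quantile-normalizes arrays, which hides shifts that most genes share, and summarises probes. Neither its version nor the set of arrays it was run on is given in the sources used here.

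GEO's platform annotation gave 1 gene for 20393 of 22690 probe sets, and Entrez numbers matched RefSeq (GRCm38.p6) for all 19 probe sets of the members. Of the 36 background genes with a probe set, 2 were themselves detected in all 3 muscles. Of each other list the first 3 genes measured, and any with a range of at least 1 or called by the test, were named. Further list genes, and the order of muscles over the family, were chosen after their values were seen. The members, lists and tests were chosen with earlier results of these data known.

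With 1 group, the variance of each gene (2 degrees of freedom) was compared with limma's prior variance (limma 3.58.1, R 4.3.3, robust, trend on level) by an F test, one-sided, adjusted by Benjamini-Hochberg with a threshold of 0.05, over 7438 genes detected in at least 1 muscle. The largest prior degrees of freedom of the robust fit were used for every gene. This F test, called limma's variance test here, was built from limma's prior and is not a standard limma test. It was run on data simulated from the same fitted variances, so that run cannot show whether the fit holds for these arrays. The simulated shifts were of 2-fold or more, wider than the span of any member detected throughout, so smaller differences were not tried. Since separate animals are not stated, p-values cover no more than sample-to-sample spread, which may be technical. Alternatives covered scaling, probe set choice, background level, filter, limma settings and leaving out each muscle. Python 3.11.15, pandas 2.3.3, numpy 2.4.6 and matplotlib 3.10.9 were used.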

Additional observations from a re-analysis of the deposited data

How the results depend on the processing

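Under every alternative run, 0 members were called by limma's variance test. Among members detected in every muscle the count at an unadjusted p under 0.05, 3 in the reported setting, was 1 with probe sets averaged and 0 to 4 when a muscle was left out, 0 without muscle 3. Without probe sets matching several transcripts it was 2, Lum and Fmod. The count of members detected in all 3 muscles, 8, was 7 at the 99th percentile, without probe sets matching several transcripts and with the second-highest probe sets. Prelp was the member lost each time, and its muscle 3 value, 6.84, lay just under the 99th percentile level of 6.85. The count was 8 when any muscle was left out, and 17 of 19 as probe sets. The count with a range of at least 1 was 1 (Omd, with values below background), or 2 with the limit at 1.5-fold. Leaving out muscles in turn gave 0 to 1: 0 without muscle 2 and 0 without muscle 3. The median departure in muscle 3, -0.165, was -0.0211 with probe sets averaged and -0.0108 without probe sets matching several transcripts. Without 1 of the other muscles it lay between -0.222 and -0.108. In muscle 2 it was 0.0737, or -0.00237 without probe sets matching several transcripts, and 0.0425 to 0.222 when a muscle was left out. Of the 8 members detected in all 3 muscles, 7 were lowest in muscle 3. That count was 5 after quantile normalization, where the share of all genes was 35.9%, and 5 with probe sets averaged, where it was 46.1%. Of the 7 members still detected, it was 4 without probe sets matching several transcripts, where the share was 47.3%, and 3 with the second-highest probe sets. The count highest in muscle 2, 5, was 2 and 1 under the last 2 of these settings and 3 with probe sets averaged. These counts, that at an unadjusted p and the second-highest setting were chosen after seeing the data. The median SD, 0.111, ran from 0.0351 to 0.157 with a muscle left out, with 0.0351 without muscle 3. Of 63 alternative values for the range of a single member, 14 moved by more than the SD of that member. The causes were not tested. No paired analysis was possible because there is a single group. With 3 arrays, differences close to background, such as that of Omd, were limited by the signal over background.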
